A study of Vitis vinifera with 6 samples.

Results

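Flavonoid 3′,5′-hydroxylase (F3′5′H) is the cytochrome P450 that adds hydroxyl groups to both free positions of the flavonoid B-ring, the step that leads to the trihydroxylated, delphinidin-type anthocyanins and proanthocyanidin units. Flavonoid 3′-hydroxylase adds a single group and leads to the dihydroxylated, cyanidin-type compounds, so both enzymes draw on the same upstream intermediates made by chalcone synthase (CHS) and flavanone 3-hydroxylase (F3H). In grapevine F3′5′H is encoded by a tandem array of near-identical copies on chromosome 6, best known for the blue and purple pigments of berry skin.

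The copies described here are the 10 listed identifiers of that array, from VIT_06s0009g02810 to VIT_06s0009g03010, and all 10 have a probe among the 34369 gene probes of the array, 1 probe per copy. Below, a copy is called by the end of its identifier, so that g02810 is VIT_06s0009g02810. The array files give identifiers only. The name F3′5′H is given by the study to g02920, and for the other 9 copies it comes from the list itself. The probe sequences were not used here, so it was not tested how far a probe also binds transcripts of the other, near-identical copies, and values of different copies are compared by their pattern over the arrays and not by their level.

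Leaf RNA of cv. Sultana, a white-berried table grape, came from plantlets grown in vitro and infiltrated at an age of 5 weeks with Agrobacterium strain C58C1, 6 plantlets for each construct, and leaves were taken 6 days later. The 3 35S:VvWRKY26 arrays carry lines that received the WRKY transcription factor VvWRKY26 under the constitutive 35S promoter, and the 3 control arrays carry lines that the labels call wild type and the methods describe as infiltrated with a vector holding a non-coding sequence. Expression was transient, so transformed and untransformed leaf cells were measured together, and a change in the number of cells cannot be told apart from a change in RNA per cell. The comparison asks how the copies respond when VvWRKY26 is over-expressed, and whether they respond alike.

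Values are log2 intensities relative to the 75th percentile of the gene probes on the same array, which is 0 on this scale. The arrays had 25391 to 32600 probes well above background and 0 saturated probes. By scan time the arrays form 3 scans of 1 control and 1 35S:VvWRKY26 array each. Scan 1 holds replicate 1 of both groups, scan 2 holds control replicate 2 with 35S:VvWRKY26 replicate 3, and scan 3 holds control replicate 3 with 35S:VvWRKY26 replicate 2. In scan 2 about 94.7% and 94.9% of the probes were well above background, against 73.9% to 77.6% on the other 4 arrays. The headers give control replicates 1 and 2 the same slide and array position, and 35S:VvWRKY26 replicates 1 and 3 likewise, although each was scanned separately; across genes, control replicates 1 and 2 had the lowest correlation of all pairs of arrays (Pearson's r = 0.90), and all 4 were kept as separate arrays. VvWRKY26 itself read 3.12, 3.25 and 2.57 in the control arrays and 3.40, 3.69 and 3.32 in the 35S:VvWRKY26 arrays. The groups did not overlap, but the difference was a log2 of 0.49 ± 0.34 (SE, limma; adjusted p = 0.999983), or 1.40-fold. By the study's account the lines on the arrays were picked for high or low VvWRKY26 expression after qPCR. That choice favours groups that are apart for this gene. All 6 leaf photosynthesis markers were well above background on every array. Their summed level relative to the array's 75th percentile was 527 and 318 in control replicates 1 and 2. In 35S:VvWRKY26 it ranged from 371 to 451. The sum of control replicate 3, 283, lacks the marker PSBS, whose spot was an outlier on that array, so it is not comparable.

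Transcripts of the array were measured in the leaves of both groups. Of the 10 copies, 8 were well above background on all 6 arrays. The exceptions were g03000, which missed that mark on control replicate 3, and g03010, which missed it on 35S:VvWRKY26 replicate 2. The copies varied widely between arrays, with a range over the 6 arrays between 2.37 and 5.65 on the log2 scale and a median range of 3.87, against a median of 1.90 over all genes. For 4 of the copies the range exceeded 4 log2 units, as it did for 14.7% of all genes. Dim probes raise that share. Among the 23701 genes well above background on all 6 arrays it was 2.24%, with a median range of 1.35, against 3 of the 8 copies with that mark.

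**Figure D1:**
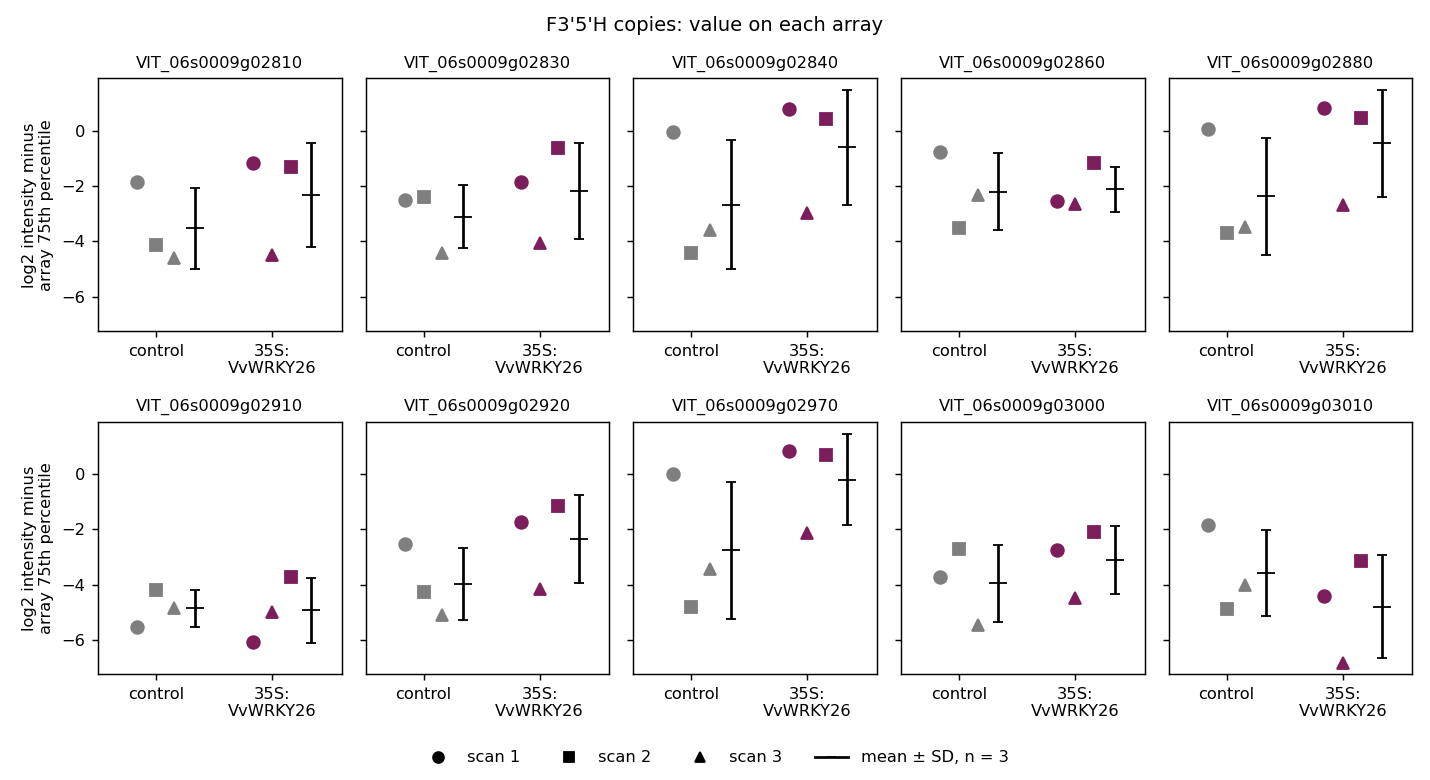
Values of each F3′5′H copy on the 6 arrays (y axis, log2 intensity relative to the 75th percentile of its array), 1 panel per copy, control in grey and 35S:VvWRKY26 in purple, with the marker giving the scan and the black bar the mean ± SD of 3 arrays. In all 10 panels the groups overlap, and in g02840, g02880 and g02970 both groups hold arrays near 0 and arrays several log2 units lower.

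The widest spread was that of VIT_06s0009g02970. Its deposited signal, with replicates in the order 1, 2 and 3 here and below, was 1593, 37.6 and 74.3 on the control arrays and 2609, 197 and 2280 on the 35S:VvWRKY26 arrays. Scaled to each array this gave -0.02, -4.82 and -3.43 in the controls and 0.82, -2.12 and 0.67 in 35S:VvWRKY26. Control replicate 1 was thus as high as the upper 35S:VvWRKY26 arrays within about a log2 unit, while 35S:VvWRKY26 replicate 2 lay below it. The means were -2.76 ± 2.47 (SD, n = 3) in controls and -0.21 ± 1.65 in 35S:VvWRKY26, a log2 difference of 2.55 ± 1.44 (SE), which is 5.84-fold, and it did not pass the test (limma, adjusted p = 0.999983). The difference was 1.51 without control replicate 2 and 3.92 without control replicate 1.

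The pattern of VIT_06s0009g02840 and VIT_06s0009g02880 was close to that of g02970. For g02840 the values were -0.03, -4.42 and -3.59 in the controls and 0.78, -2.98 and 0.41 in 35S:VvWRKY26. For g02880 they were 0.07, -3.69 and -3.50 in the controls and 0.83, -2.68 and 0.46 in 35S:VvWRKY26. In both copies control replicate 1 and 35S:VvWRKY26 replicates 1 and 3 were high and the remaining arrays low, and the groups overlapped. The log2 differences were 2.08 ± 1.51 (SE) for g02840 and 1.91 ± 1.39 for g02880, neither past the test. Without control replicate 2 they were 1.21 and 1.25, and without control replicate 1 they were 3.41 and 3.13.

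The copy that the study names, VIT_06s0009g02920, was chosen there for being higher on these same arrays, so its direction is not independent evidence. It read -2.55, -4.27 and -5.11 in the controls and -1.75, -4.17 and -1.17 in 35S:VvWRKY26. The log2 difference was 1.62 ± 1.02 (SE), or 3.07-fold, with an unadjusted p of 0.165 and an adjusted p of 0.999983 (limma). Its 35S:VvWRKY26 replicate 2 lay within the control values, and without that array the log2 difference was 2.52, while without 35S:VvWRKY26 replicate 3 it was 1.02. Copy g02810 followed the same arrays, with -1.86, -4.13 and -4.60 in the controls and -1.16, -4.49 and -1.32 in 35S:VvWRKY26, and differed by a log2 of 1.21 ± 1.17 (SE). With single arrays left out, its difference ran from 0.62 without 35S:VvWRKY26 replicate 1 to 2.29 without 35S:VvWRKY26 replicate 2. In g02810, g02840, g02880, g02920 and g02970, 5 of the 10 copies, the 3 highest arrays were the same: control replicate 1 and 35S:VvWRKY26 replicates 1 and 3.

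Copies VIT_06s0009g02830 and VIT_06s0009g03000 had the same 3 highest arrays, 35S:VvWRKY26 replicates 1 and 3 and control replicate 2, though in a different order. For g02830 the controls read -2.49, -2.41 and -4.42 and the 35S:VvWRKY26 arrays -1.84, -4.05 and -0.62. For g03000 the controls read -3.71, -2.72 and -5.45 and the 35S:VvWRKY26 arrays -2.75, -4.50 and -2.08. In both, the scan 3 arrays were the lowest of their group. The log2 differences, 0.94 ± 1.03 (SE) and 0.85 ± 0.93, were smaller than their errors. With single arrays left out, the difference of g02830 was lowest without 35S:VvWRKY26 replicate 3, at 0.17, and highest, at 1.88, without 35S:VvWRKY26 replicate 2, and for g03000 it was 0.10 without control replicate 3 and 1.54 without 35S:VvWRKY26 replicate 2.

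The last 3 copies had no common direction. Copy VIT_06s0009g02860 read -0.76, -3.53 and -2.31 in the controls and -2.56, -2.64 and -1.17 in 35S:VvWRKY26, a log2 difference of 0.08 ± 0.82 (SE). Copy VIT_06s0009g02910 was at low signal on every array, from 21.8 to 109, and read -5.55, -4.20 and -4.84 in the controls and -6.08, -4.98 and -3.72 in 35S:VvWRKY26, a log2 difference of -0.07 ± 0.71. The sign of these small differences changed for both copies with the processing. Copy VIT_06s0009g03010 was the only member with a lower mean by more than 2-fold, with -1.86, -4.89 and -4.02 in the controls and -4.39, -6.83 and -3.16 in 35S:VvWRKY26, a log2 difference of -1.20 ± 1.19. This size rested on single arrays, since the difference was -0.19 without 35S:VvWRKY26 replicate 2 (the array that missed the background mark), -0.34 without control replicate 1 and -2.02 without 35S:VvWRKY26 replicate 3. It was -0.56 with normexp correction and -0.36 with quantile normalization.

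Over the array as a whole, 8 of the 10 copies had a higher mean in 35S:VvWRKY26, with a median log2 difference of 1.07 against -0.05 over all genes. The mean was at least 2-fold higher in 5 copies, against 2.01% of all genes, and at least 2-fold lower in 1, against 5.58%. None of the copies passed the test. With limma and Benjamini-Hochberg adjustment over all genes, 0 of 10 copies and 0% of all genes had an adjusted p under 0.05, and at an unadjusted p under 0.05 there were 0 copies and 1.03% of all genes. The groups overlapped in all 10 copies, while they did not overlap for 4.7% of all genes in either direction. The count depended on single arrays: without 35S:VvWRKY26 replicate 2 the groups did not overlap in 6 copies, against 11% of all genes with the same arrays, and without control replicate 1 in 4, against 17.4%. Exact two-sided permutation tests of 3 arrays against 3, which cannot go below 0.1, gave p between 0.2 and 1 for the copies. The SD over 3 arrays was between 0.67 and 2.47 in controls and between 0.82 and 2.07 in 35S:VvWRKY26.

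Set against the array of the same scan, most copies were higher in 35S:VvWRKY26. In 7 of the 10 copies (g02810, g02830, g02840, g02880, g02920, g02970 and g03000) the 35S:VvWRKY26 array was above the control array in each of the 3 scans, as it was for 11.6% of all genes. No copy was lower in each scan, against 14.3% of all genes. Of these 7 copies only g02840, g02880 and g02970 were higher in every scan after normexp background correction, while the 7 were the same with quantile normalization and with no scaling.

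**Figure D2:**
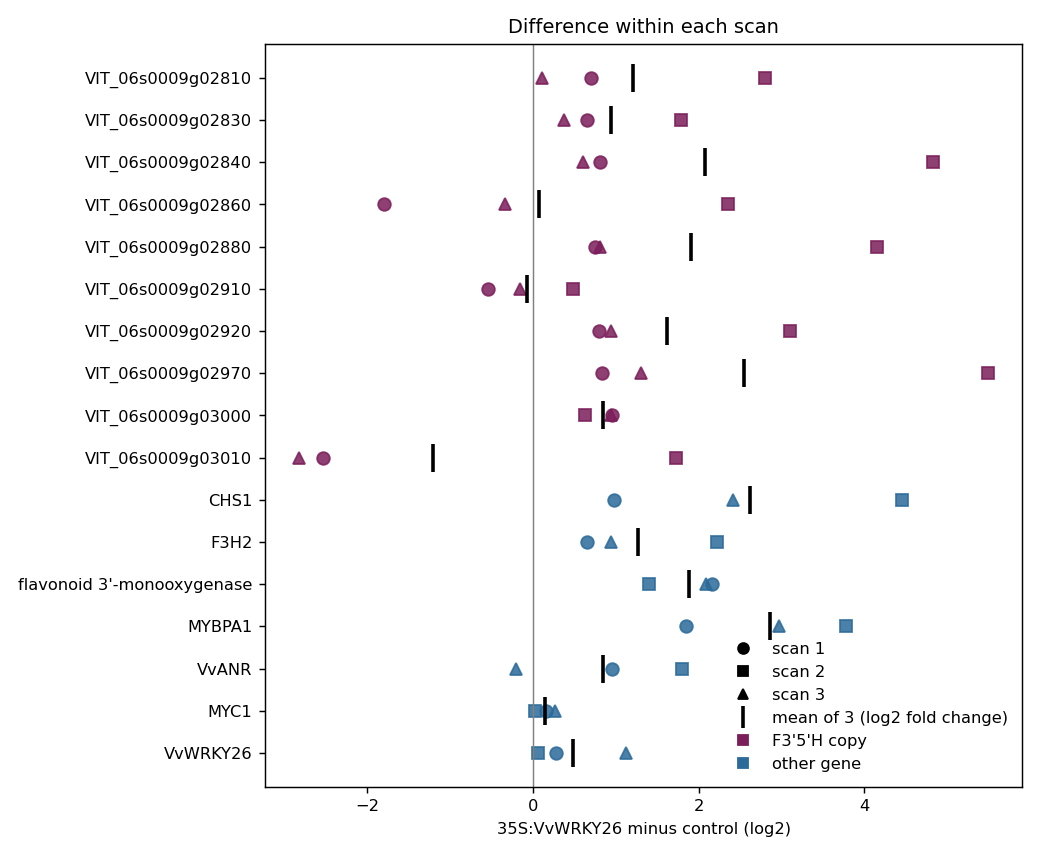
Difference between the 35S:VvWRKY26 and the control array of each scan (x axis, log2), for the 10 F3′5′H copies in purple and 7 other genes in blue, with the marker giving the scan and the black bar the mean of the 3 scans. For most copies the square of scan 2 lies far to the right, at 5.49 for g02970, while the scan 1 and scan 3 differences lie nearer to 0.

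The size of the difference depended on the scan. In scan 1 the 7 copies were higher by a log2 of 0.65 to 0.96, with a median of 0.80. In scan 3 they were higher by 0.11 to 1.31, with a median of 0.82. In scan 2 they were higher by 0.63 to 5.49, with a median of 3.11. Control replicate 2, the control of that scan, was the lowest array for g02840, g02880 and g02970 but the highest control for g02830 and g03000. All 10 copies were higher in scan 2 (45.8% of all genes), and 7 were higher in scan 1 (52.3%) and in scan 3 (46.8%). The scan 1, scan 2 and scan 3 differences were 0.84, 5.49 and 1.31 for g02970 and 0.80, 3.11 and 0.95 for g02920. Among the 7 they lay closest together for g03000, at 0.96, 0.63 and 0.95. This did not hold with normexp correction, where the g03000 differences were -0.77, 0.77 and 0.30.

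With scan as a block in limma the standard errors of the copies were between 0.28 and 0.96, against 0.71 to 1.51 without it. Copies g02920, g02970 and g03000 then had an unadjusted p of 0.029, 0.045 and 0.027, all 3 higher in 35S:VvWRKY26. That is 3 of 10 copies, against 5.3% of all genes in either direction and 1.71% in the higher direction. The study chose g02920 for a rise on these same arrays, which favours its place in this count. Copy g03000 was not well above background on control replicate 3. After adjustment over all genes no copy passed (lowest adjusted p = 0.876), and neither did any other gene.

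To ask whether the copies moved in parallel, for each copy the value minus the median of the other copies that were well above background on all arrays was taken per array, and the groups were compared. Only g03010, 1 of the 10 copies, had groups that did not overlap in this measure. The measure exists only for the copies, so no share over all genes stands beside this count. Relative to the 8 other copies it read -0.55, -0.73 and -0.01 in the controls and -2.94, -3.32 and -2.27 in 35S:VvWRKY26, so that the groups did not overlap and the difference was a log2 of -2.41. The difference had the same sign within each scan, at -2.39, -1.54 and -3.31. Its exact two-sided permutation p was 0.1, the smallest that 3 arrays against 3 allow, and 0.667 after Benjamini-Hochberg adjustment over the 10 copies. At that p, 1 of 10 copies is the count to be expected on average without any difference. On its own values the log2 difference of g03010 was -1.20, and the rest of the -2.41 comes from higher values of the other copies. Copy g03010 was not well above background on 35S:VvWRKY26 replicate 2, and without that array the difference was -2.17. Its groups stayed apart with normexp correction, quantile normalization and dim spots at the lowest measured signal. They also did with the authors' table, in which 35S:VvWRKY26 replicate 2 is the average of replicates 1 and 3. Leaving out an array cannot make groups that are already apart overlap, so it shows only the size of the difference. Over the 10 alternatives that can move this value, the difference ran from -2.70 to -1.16.

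For the other 9 copies the groups overlapped in this measure. The largest difference in the higher direction was that of g02970, 1.40 on the log2 scale (exact two-sided permutation p = 0.2), and in the lower direction those of g02860, -1.47, and g02910, -1.31. Leaving out control replicate 1 separated the groups for 5 copies (g02840, g02880 and g02970 higher, g02910 and g03010 lower), leaving out control replicate 2 for 3 (g02920 and g03000 higher, g03010 lower), leaving out 35S:VvWRKY26 replicate 2 for 2 (g02860 and g03010 lower), and leaving out 35S:VvWRKY26 replicate 3 for 2 (g02970 higher, g03010 lower). Copy g03010 was apart already and is counted each time. With fewer arrays groups separate more readily. In their own values the groups did not overlap for 11% to 17.4% of all genes with these arrays left out, against 4.7% with all arrays. No such share exists for the measure against the other copies.

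The likeness of the copies was measured as the root mean square difference of their log2 values over the 6 arrays, after centring each copy on its own mean, so that 0 is an identical pattern. Over the 45 pairs of copies it ranged from 0.24 to 2.52, with a median of 1.33. The closest pair was g02840 and g02880, at 0.24, and no other gene on the array was nearer to either. Copy g02970 lay 0.38 from g02840 and 0.52 from g02880, and its nearest gene on the whole array was g02840. Copies g02810 and g02920 lay 0.38 apart, with 1 gene nearer to the first and 3 nearer to the second. Copies g02830 and g03000 lay 0.41 apart, with 20 and 82 genes nearer. Copies g02860, g02910 and g03010 had no near relative in the array, since their nearest copy was 1.01 or more away and at least 716 genes were nearer. How much of the likeness comes from probes that read more than a single copy was not tested.

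**Figure D3:**
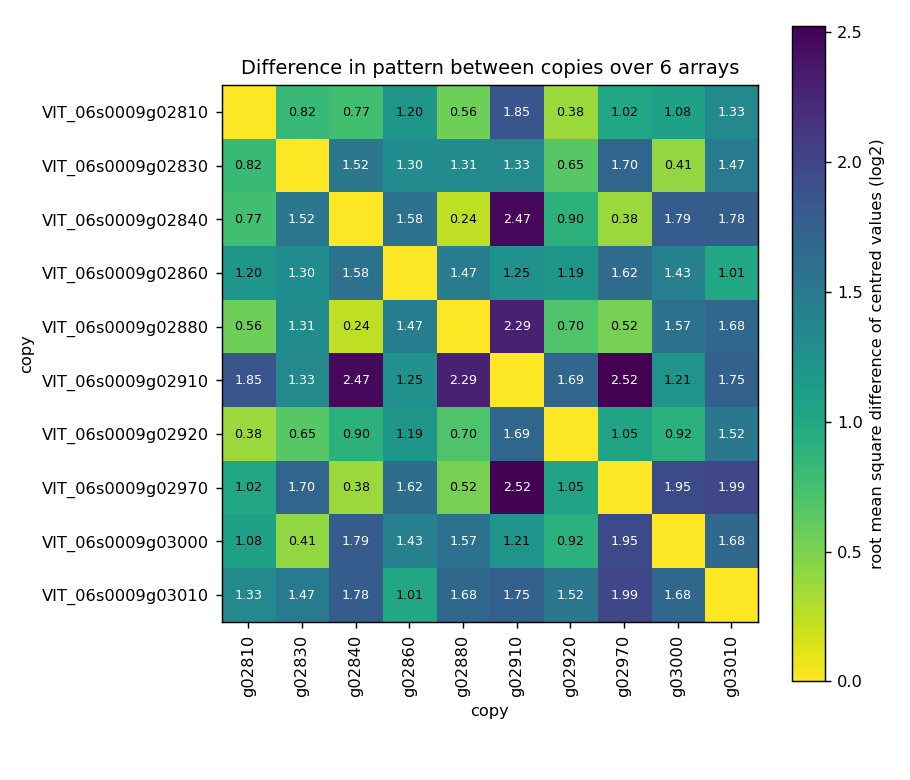
Root mean square difference (log2) between the centred values of each pair of F3′5′H copies over the 6 arrays, with small values, in yellow and green, for copies of like pattern. The small values join g02840, g02880 and g02970, g02810 and g02920, and g02830 and g03000, while the row of g02910 holds the largest, 2.52 against g02970.

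For 0 of the 10 copies was the nearest copy by pattern also the next copy in the order of the identifiers. The median difference was 1.58 over the 9 pairs that follow each other and 1.27 over the 36 other pairs. Between the first and the last copy lie 5 further identifiers that are not listed as F3′5′H (g02820, g02850, g02870, g02930 and g02980), all well above background on all 6 arrays. Their log2 differences were between -0.49 and 0.17, their median range over the arrays was 1.72 against 3.87 for the copies, and 0 of the 5 were higher in 35S:VvWRKY26 in each scan, while g02850 was lower in each. Of the 35 identifiers around the array, from g02600 to g03200, 5 were higher and 7 lower in each scan, 1 was at least 2-fold higher and 4 at least 2-fold lower. Of these 35, only 22 were well above background on all arrays.

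**Figure D4:**
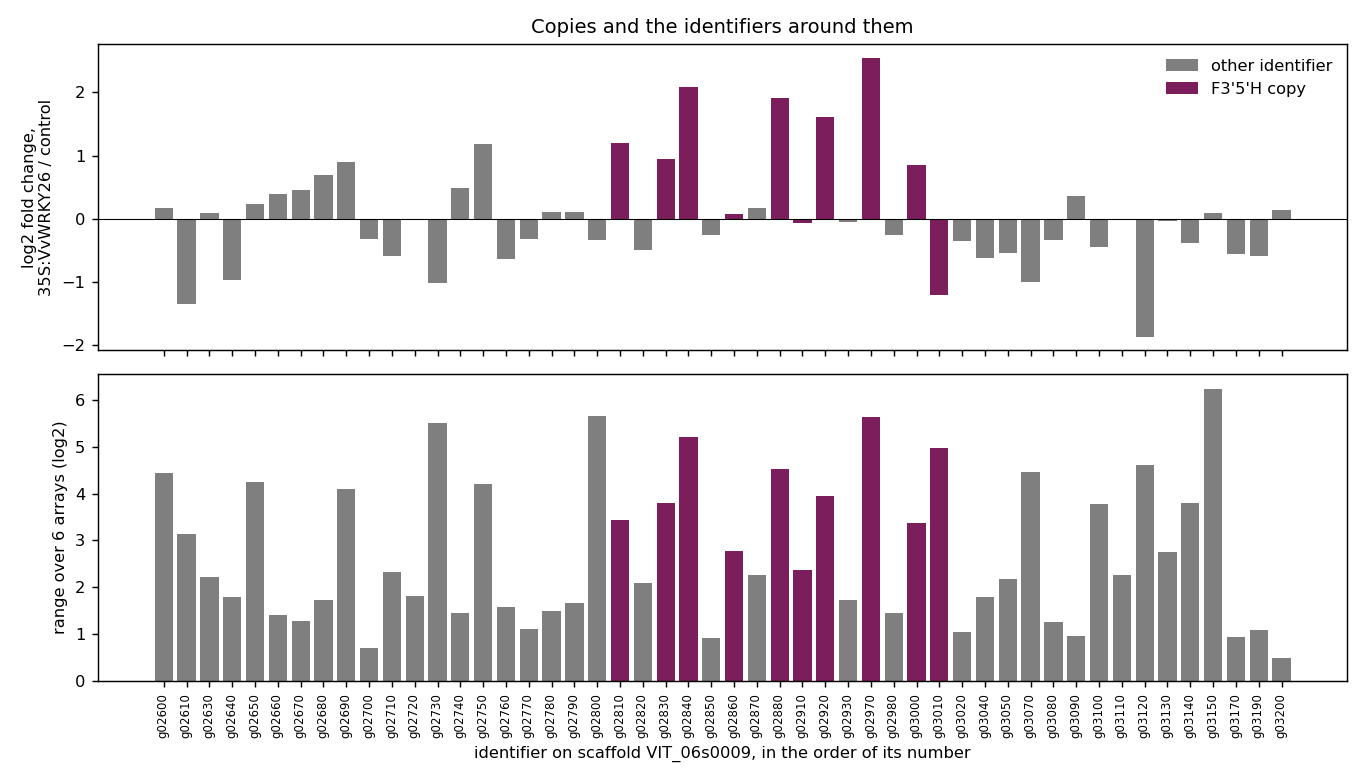
Log2 fold change of 35S:VvWRKY26 over control (upper panel) and range over the 6 arrays (lower panel, log2) for the identifiers from g02600 to g03200 in the order of their number, F3′5′H copies in purple and others in grey. The copies with high bars in the upper panel alternate with grey identifiers between -0.49 and 0.17; 13 of the grey identifiers outside the array were not well above background on every array.

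Among the genes that work upstream of F3′5′H, CHS1, the chalcone synthase that starts the pathway, had a pattern near that of the group of g02970. It read -0.82, -4.45 and -3.34 in the controls and 0.17, -0.93 and 0.00 in 35S:VvWRKY26, and lay 0.71 from g02970, with 7 genes of the whole array nearer. From g02840 it lay 0.95, with 60 genes nearer, and from g02880 0.91, with 94 nearer. These copies lay closer to one another than to CHS1. The main difference between CHS1 and g02970 was 35S:VvWRKY26 replicate 2, where g02970 was low. The log2 difference of CHS1 was 2.62 ± 0.97 (SE; limma, adjusted p = 0.999983), and within scans 1, 2 and 3 it was 0.98, 4.46 and 2.41. F3H2, a flavanone 3-hydroxylase, read 0.63, -0.81 and -0.29 in the controls and 1.28, 0.66 and 1.41 in 35S:VvWRKY26, and its groups did not overlap, with a log2 difference of 1.27 ± 0.49. The study chose both CHS1 and F3H2 for a rise on these same arrays, so their direction is not independent evidence. That choice also favours groups that are apart.

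VIT_18s0001g11430, which the study lists under the name of the competing B-ring hydroxylase, flavonoid 3′-monooxygenase, varied less within its groups than any copy. It read 1.61, 2.62 and 1.77 in the controls and 3.77, 3.86 and 4.02 in 35S:VvWRKY26, so that the 3 values of each group lay close together and the groups did not overlap. The study chose this gene for a rise on these same arrays, a choice that favours close values within groups, a small error and groups apart. Its log2 difference was 1.89 ± 0.38 (SE; limma, adjusted p = 0.999983), and within scans 1, 2 and 3 it was 2.16, 1.40 and 2.09. The difference was thus of a size like that of g02880, with a smaller error than any copy, among which the smallest SE was 0.71. MYBPA1, an activator of proanthocyanidin genes that the study chose in the same way, was likewise separated. It read -2.90, -4.86 and -4.41 in the controls and -1.05, -1.44 and -1.08 in 35S:VvWRKY26, a log2 difference of 2.86 ± 0.57.

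The 13 flavonoid genes that the study chose for a rise on these arrays all had a higher mean, 12 of 13 by at least 2-fold and 12 of 13 higher in each scan; the choice itself fixes that direction. In both counts the exception was an anthocyanidin reductase (VIT_00s0361g00020), at a log2 difference of 0.35. Their groups did not overlap in 7 of 13, against 4.7% of all genes, which the choice on these arrays also favours. Of the 9 flavonoid genes that the study annotated but did not choose on these arrays, 5 were well above background in every array of at least 1 group, 0 changed by 2-fold in either direction, 2 were higher and 1 was lower in each scan, and the median log2 difference was 0.15. Among them was VIT_00s0361g00040, a different identifier that is also annotated as VvANR, at 0.85 ± 0.45 (SE). MYC1, a bHLH partner of the MYB activators, was at 0.15 ± 0.31.

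The leaf markers that varied most over the same arrays were the 2 identifiers annotated as LHCB3, a light-harvesting protein of photosystem II. Their ranges were 3.88 and 3.39 log2 units, whereas PsbO, of the oxygen-evolving complex, ranged over 0.21. The first LHCB3 identifier, VIT_00s0181g00180, read 4.87, 0.99 and 1.78 in the controls and 2.90, 2.63 and 4.24 in 35S:VvWRKY26. Control replicate 2 was thus its lowest array, as it was for 4 of the copies. Its part in the pattern of the copies was not tested.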

How the data were processed

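For each array the authors deposited spot intensities from Agilent Feature Extraction 10.5.1.1 after background subtraction (the processed signal), with marks for outlier, saturated and well-above-background spots. Beside these stands their own scaled table, set to the 75th percentile, where 35S:VvWRKY26 replicate 2 holds the average of replicates 1 and 3 for all 34369 genes; it served only as an alternative. No coordinates are given, since the gene table at hand is of another assembly.

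Processed signals were taken to log2 and centred on the 75th percentile of the 34369 gene probes of each array, without the 1417 control spots and with outlier spots set to missing (0 among the copies). Groups of 3 and 3 arrays were compared with limma 3.58.1 in R 4.3.3 (4 residual and 1.88 prior degrees of freedom, two-sided, Benjamini-Hochberg over all genes, threshold 0.05), after a test on simulated data. Counts that need all 6 values used 34084 genes. Exact permutation tests used SciPy 1.17.1, and tables and pictures pandas 2.3.3, NumPy 2.4.6 and matplotlib 3.10.9. The rule for genes named was all copies, VvWRKY26, 6 flavonoid genes and any sole exception to a count. LHCB3, PsbO and the identifiers between the copies were named after their values were seen. Members and lists were chosen with earlier results of these data known. Each array carries 1 infiltrated line, and precision is limited by their number.

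Each array was left out in turn, and limma was rerun with blocks for scan, slide or replicate number, with array weights and with an intensity trend. Other alternatives were quantile normalization, normexp correction (offset 50), unscaled values, the authors' table, dim probes filtered or set to the lowest measured signal, outlier spots retained, and the methods' t-test with equal and unequal variances.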

Additional observations from a re-analysis of the deposited data

How the results depend on the processing

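Under the 20 alternatives 0 genes passed the adjusted threshold, while the number with an unadjusted p under 0.05 ranged from 145 with no scaling to 1822 with scan as a block, against 355. All alternatives kept the direction of 8 copies. That of g02860 turned to -0.14 with normexp correction, -0.10 with array weights, and with arrays left out ranged from -0.59 to 0.80 (below 0 without control replicate 2 or 35S:VvWRKY26 replicate 3). That of g02910 turned to 0.31 with quantile normalization, 0.069 with no scaling, 0.11 with the authors' table, and with arrays left out ranged from -0.67 to 0.51 (above 0 without control replicate 2 or 35S:VvWRKY26 replicate 1). The log2 difference of g02920 ranged from 0.79 to 2.53, and from 1.02 to 2.52 with arrays left out. The median over the copies ranged from 0.48 to 2.10. Copies higher in each scan numbered 3 with normexp correction and 7 with quantile normalization and with no scaling. They also numbered 7 with the authors' table, where the scan 3 35S:VvWRKY26 column averages the arrays of scans 1 and 2. With each array left out they numbered 7 as well, but leaving out an array cannot lower this count. Settings that change only the model cannot move it. Copies whose groups do not overlap numbered 6 with the authors' table, whose averaged column replaces the low array (11% of all genes), and 0 to 6 with arrays left out: 4 without control replicate 1 (17.4% of all genes), 6 without 35S:VvWRKY26 replicate 2 (11%) and 0 without any of the other 4 (9.32% to 13.2%). Copies set apart from the other copies numbered 2 with the authors' table and 1 to 5 with arrays left out. Leaving out an array cannot lower this count, and no share over all genes exists for it. The median of all genes moved from -0.05 to -0.33 with normexp correction, 0.081 with no scaling, 0.10 with the authors' table, and from -0.27 (without 35S:VvWRKY26 replicate 3) to 0.19 (without control replicate 2) with arrays left out. The cause of these shifts was not tested. Arrays of the same scan deviated together (r of deviations 0.63, 0.69 and 0.54 in scans 1, 2 and 3). Arrays with the same replicate number did not for replicates 2 and 3 (-0.28 and -0.41), so these numbers do not pair those samples. The replicate 1 arrays share number and scan, so their 0.63 cannot tell the pairings apart. With the replicate block, 246 genes had an unadjusted p under 0.05 (limma) and g02920 differed by 1.62.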
